A study of Homo sapiens with 12 samples.

Results

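Oxidative phosphorylation genes encode the nuclear subunits of respiratory complexes I to V and part of the factors that assemble them. They were taken here as the protein-coding genes on chromosomes 1 to 22 and X whose symbols start with NDUF, SDH, UQCR, COX or ATP5, which gave 111 of 19970 genes in GENCODE release 44 (hg38). By complex, 46 belonged to complex I, 8 to complex II, 9 to complex III, 28 to complex IV and 20 to complex V. NDUFA4 and NDUFA4L2 carry complex I symbols but were counted with complex IV, where their proteins are found. The symbol rule left out CYC1, CYCS and assembly factors with other names, and it took in 11 tissue-restricted isoforms, readthrough genes and copies.

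The data came from Huh7, a human hepatocellular carcinoma line, in which the study examined the heat shock transcription factor HSF1 and its relation to histone acetylation. Of the 12 samples, 2 were used: an HSF1 CUT&Tag library and an H3K27ac CUT&Tag library, each from cells labelled WT in genotype with no treatment. CUT&Tag (cleavage under targets and tagmentation) directs a transposase with an antibody, so that DNA near the antibody's target is cut and sequenced, and H3K27ac is the acetylation of lysine 27 on histone H3 found at active promoters and enhancers. There was 1 library per antibody and no replicate, so no test between conditions was possible and every interval covers counting error only.

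Electrons from NADH enter the respiratory chain at complex I and those from succinate at complex II. Ubiquinone carries both to complex III, cytochrome c carries them on to complex IV, and complexes I, III and IV pump the protons that complex V uses to make ATP. Most subunits are encoded in the nucleus and the rest in mitochondrial DNA, and assembly factors insert the hemes, flavins, iron-sulfur clusters and copper. The nuclear genes are transcribed in nearly all tissues, and in liver they sustain urea and glucose production. HSF1 binds heat shock elements and is best known for driving chaperone genes under protein stress. CCAAT is the core of the box bound by the trimeric factor NF-Y at many housekeeping promoters.

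The HSF1 list held 7129 peaks on these chromosomes from 2712212 tags kept after duplicate removal, which were 75.2% of all tags. The H3K27ac list held 1291 peaks from 896393 tags, or 5.70% of 15737890, so its absent peaks carry less information. A gene was called bound when a peak summit lay within 1 kb of any of its annotated transcript starts. The pileup counts the extended tags that cover a summit. Fold enrichment divides it by the background expected nearby, after 1 is added to both. Of 10 hepatocyte markers, APOB and HNF4A had an HSF1 peak, and 0 of 10 had an H3K27ac peak, ALB and AFP included. Of 6 markers of blood, stromal and endothelial cells, COL1A1 had an HSF1 peak and 0 had an H3K27ac peak, so these lists could not check the label hepatocellular. Of 12 classical HSF1 targets 7 were bound, among them HSPD1 and HSPE1, which share a peak of fold enrichment 12.3. HSPA1A, HSPA1B and HSPB1 were not bound. The share of these targets bound was 58.3% (Wilson interval 32% to 80.7%), against 25.5% of all protein-coding genes. It was 20% (5.67% to 51%) for the hepatocyte markers and 16.7% (3.01% to 56.4%) for the markers of other cells. Both marker intervals include 25.5%, so these shares could not be told apart from that of all coding genes.

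Sequences near the summits are printed for up to 2 bound members of each complex. They were taken by fold enrichment among those with CCAAT within 100 bp of the summit in an exon-free window. Each runs 5′ to 3′ on the gene's own strand in hg38, with CCAAT or its reverse complement ATTGG in capitals. Each was kept outside annotated exons, and those of NDUFV3 and UQCRC2 end before the summit. COX7A2L and ATP5MC1 had higher peaks with a box, but an annotated exon covered or cut short the window around it, which leaves COX4I1 for complex IV and ATP5F1E as the lower of the complex V pair. No complex II member held CCAAT within 100 bp of its summit.
NDUFA11 (complex I, chr19:5904486-5904580, minus strand): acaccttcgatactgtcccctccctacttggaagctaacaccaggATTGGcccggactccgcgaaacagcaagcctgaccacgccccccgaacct
NDUFV3 (complex I, chr21:42893199-42893267, plus strand): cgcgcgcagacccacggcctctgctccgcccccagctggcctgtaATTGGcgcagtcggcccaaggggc
UQCRC2 (complex III, chr16:21953015-21953106, plus strand): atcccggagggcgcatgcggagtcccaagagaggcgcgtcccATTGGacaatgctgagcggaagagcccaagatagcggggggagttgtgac
COX4I1 (complex IV, chr16:85800352-85800446, plus strand): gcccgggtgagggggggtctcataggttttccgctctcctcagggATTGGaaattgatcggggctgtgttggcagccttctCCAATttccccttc
ATP5F1B (complex V, chr12:56646012-56646106, minus strand): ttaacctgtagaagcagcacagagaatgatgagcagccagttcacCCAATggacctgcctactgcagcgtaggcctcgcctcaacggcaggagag
ATP5F1E (complex V, chr20:59032346-59032426, minus strand): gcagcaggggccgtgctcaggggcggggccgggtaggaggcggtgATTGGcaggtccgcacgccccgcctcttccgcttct

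For contrast, NDUFA4 and COX14 had HSF1 peaks among the highest of all members and no CCAAT or ATTGG within 100 bp of the summit. Both windows lie around the summit, upstream of the gene's first exon.
NDUFA4 (complex IV, chr7:10940154-10940229, minus strand): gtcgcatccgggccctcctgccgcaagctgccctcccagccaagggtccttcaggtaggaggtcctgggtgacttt
COX14 (complex IV, chr12:50111910-50112000, plus strand): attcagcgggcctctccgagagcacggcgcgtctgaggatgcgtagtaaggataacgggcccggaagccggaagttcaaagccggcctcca

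The first comparison asked how often HSF1 peaks lay at these genes. HSF1 summits were found at 47 of 111 members, or 42.3% (95% Wilson interval 33.6% to 51.6%), against 25.5% of all protein-coding genes. By complex the share was 39.1% for complex I (18 of 46, 26.4% to 53.5%), 37.5% for complex II (3 of 8, 13.7% to 69.4%) and 33.3% for complex III (3 of 9, 12.1% to 64.6%). It was 42.9% for complex IV (12 of 28, 26.5% to 60.9%) and 55.0% for complex V (11 of 20, 34.2% to 74.2%). The 5 intervals overlapped one another widely, so no order among the complexes could be read from these counts, and those of complexes II and III also took in the share of all genes.

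**Figure D1:**
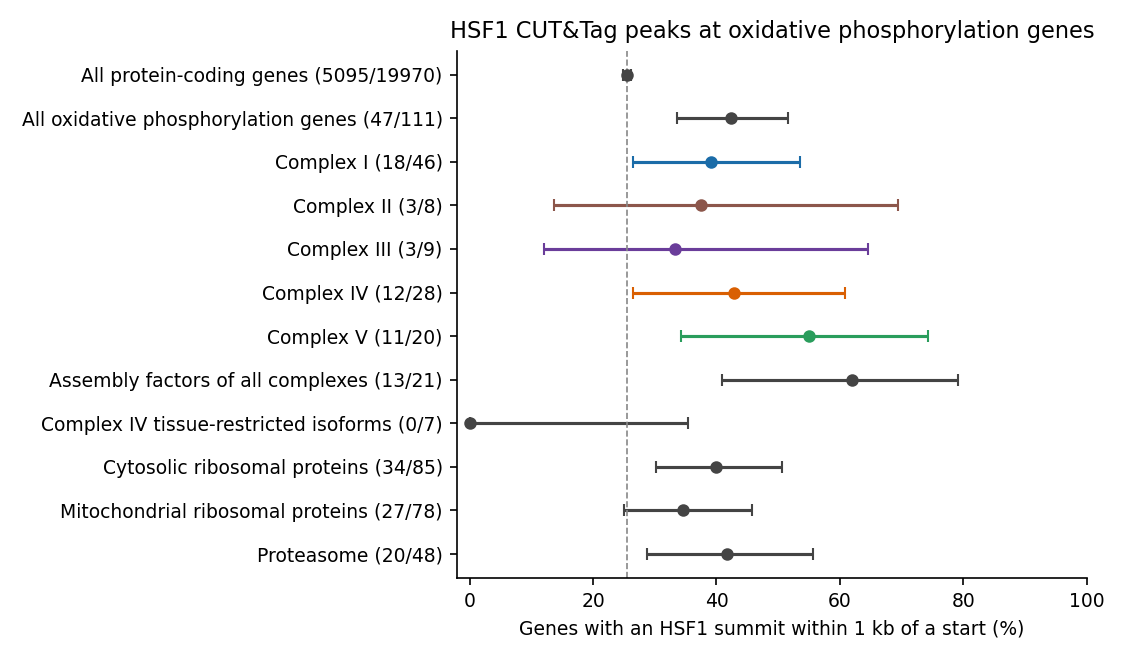
Share of genes with an HSF1 CUT&Tag summit within 1 kb of a transcript start (x axis, percent) for the groups on the y axis, with the bound and total numbers in parentheses. Points are shares, bars are 95% Wilson intervals and the dashed line is the 25.5% of all protein-coding genes. Assembly factors sit highest at 61.9% and the 7 tissue-restricted complex IV isoforms lowest at 0% (up to 35.4%, which includes 25.5%).

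Grouped by role, the assembly factors had peaks at 13 of 21 genes (61.9%, 40.9% to 79.2%) and the subunits at 33 of 77 (42.9%, 32.4% to 54.0%), with overlapping intervals. The remaining 2 members were COX7A2L, a supercomplex factor with a peak, and ATP5IF1, the inhibitor of ATP synthase, without one. None of the 11 isoforms, readthrough genes and copies was bound (0%, up to 25.9%), among them COX4I2, COX6A2, COX7A1 and COX8C, whose proteins replace the common subunits in lung, muscle or testis. This interval includes the 25.5% of all coding genes, so the share could not be told apart from it. Leaving these 11 genes out, 47 of 100 were bound (47.0%, 37.5% to 56.7%).

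Other housekeeping families had shares of a like size. HSF1 summits lay at 34 of 85 cytosolic ribosomal protein genes (40%, 30.2% to 50.6%), 20 of 48 proteasome genes (41.7%, 28.8% to 55.7%) and 27 of 78 mitochondrial ribosomal protein genes (34.6%, 25% to 45.7%). These intervals all overlapped that of the oxidative phosphorylation genes. The share was thus above that of coding genes at large and could not be told apart from the shares of these 3 families.

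Promoters of the members also differed from the average coding gene in their neighbours. A start of another coding gene lay within 1 kb upstream of the canonical start, on the opposite strand, for 36 of 111 members (32.4%) against 12.7% of all coding genes, and among bound coding genes the figure was 24.5%. Within the members it was 34.0% of bound and 31.2% of unbound genes. In the housekeeping families it was 37.2% (mitochondrial ribosomal), 25% (proteasome) and 21.2% (cytosolic ribosomal) of all genes. The intervals of these families overlapped that of the members. The median promoter GC content of the members was 62.7%, below the 65.7% of all coding genes. When the other coding genes were weighted to the members' promoter GC content, their share bound was 28.7%. Weighted to the number of annotated starts it was 27%, and to divergence 30.8%. With all 3 features together, which 105 members allowed, other coding genes stood at 34.0% and the members at 41.9% (32.9% to 51.5%), an interval that includes 34.0%. Expression could not be weighted, since RNA-seq was not analysed here.

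Complex I members had peaks of ordinary height, with 3 that stood above the others. The 18 bound genes ranged in fold enrichment from 5.92 to 11.4, with a median of 7.39 (95% interval 6.67 to 7.98), beside 7.29 (7.22 to 7.33) over all 5095 bound coding genes. NDUFA11, an accessory subunit of the membrane arm, had the highest peak at chr19:5904080-5904875, with 49 tags (Poisson 95% interval 36.3 to 64.8) and a fold enrichment of 11.4. This summit lay 481 bp upstream of its nearest start and closer to a start of VMAC or of an unnamed coding gene, and 4 CCAAT boxes lay within 100 bp of it. NDUFV2 followed with 10.2 and 22 tags at 30 bp upstream of a start, and the assembly factor NDUFAF6 with 9.72 and 20 tags. The lowest was NDUFB1, an accessory subunit, with 5.92 and 8 tags (3.45 to 15.8).

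The core subunits of complex I include those that carry the flavin and iron-sulfur clusters that pass electrons from NADH to ubiquinone. NDUFV1, which binds NADH and the flavin, had 21 tags and a fold enrichment of 7.69 with its summit 2 bp downstream of a start. NDUFV2 and NDUFS8, which hold iron-sulfur clusters, had 22 and 35 tags. The 35 tags at NDUFS8 gave a fold enrichment of 7.09, over a local background of 4.08 tags against 1.26 at NDUFV2. NDUFS1, the largest core subunit, had 13 tags and 6.09, with the summit 98 bp upstream and nearer to the divergent gene EEF1B2. NDUFS3 and NDUFS7 were not bound.

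Of the complex I assembly factors, NDUFAF2, NDUFAF3, NDUFAF4, NDUFAF6 and NDUFAF8 had peaks within 100 bp of a start, and NDUFAF1, NDUFAF5 and NDUFAF7 had none. The share bound was 62.5% (5 of 8, 30.6% to 86.3%). Among accessory subunits 9 of 30 were bound (30.0%, 16.7% to 47.9%, an interval that includes the 25.5% of all coding genes), namely NDUFA2, NDUFA5, NDUFA7, NDUFA11, NDUFB1, NDUFB4, NDUFB6, NDUFC1 and NDUFV3. The 21 without a peak were NDUFA1, NDUFA3, NDUFA6, NDUFA8, NDUFA9, NDUFA10, NDUFA12, NDUFA13, NDUFAB1, NDUFB2, NDUFB3, NDUFB5, NDUFB7, NDUFB8, NDUFB9, NDUFB10, NDUFB11, NDUFC2, NDUFS4, NDUFS5 and NDUFS6. NDUFS6 was the member just outside the limit, with a summit of 10 tags and 6.63 at 1548 bp. The readthrough gene NDUFC2-KCTD14 was not bound either.

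Complex II, succinate dehydrogenase, had the lowest median fold enrichment of the 5 complexes, 4.84 over 3 peaks. SDHB, the iron-sulfur subunit, had 8 tags (3.45 to 15.8) and a fold enrichment of 5.70 at 106 bp upstream. SDHAF4, which chaperones the flavinated subunit, had 5 tags (1.62 to 11.7) and 4.84 at the start itself, and SDHAF2, which attaches the flavin, had 9 tags and 4.55 at 243 bp upstream. Of the bound coding genes, 13.5% had a lower fold enrichment than SDHB, 2.45% than SDHAF4 and 0.687% than SDHAF2. The SDHAF2 summit lay in an exon of CPSF7, whose start was nearer. SDHA, SDHC, SDHD, SDHAF1 and SDHAF3 had no HSF1 peak.

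Complex III passes electrons from ubiquinol to cytochrome c. UQCRQ and UQCR11, small subunits, had fold enrichments of 8.33 with 15 tags and 8.21 with 21 tags, and UQCRC2, a core protein, had 7.14 with 11 tags (5.49 to 19.7). All 3 summits lay upstream, at 144, 443 and 141 bp, and that of UQCRQ was nearer to a start of GDF9. UQCRC1, the Rieske iron-sulfur protein gene UQCRFS1, UQCRB, UQCRH, UQCR10 and the copy UQCRHL were not bound. The symbol rule does not hold cytochrome c1, and its gene CYC1 was likewise without a peak. By contrast CYCS, which encodes the cytochrome c that complex III reduces, had a peak of 11.8 with 27 tags.

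Complex IV held both some of the highest and some of the lowest peaks. COX7A2L, which joins complexes III and IV into supercomplexes, had 29 tags (19.4 to 41.6) and 12.7 at chr2:42361171-42361724, above 98.8% of bound coding genes. NDUFA4, a subunit of the mature enzyme, had 24 tags and 11.0 at 31 bp upstream. COX14, needed for making the mitochondrially encoded subunit COX1, had 43 tags and 10.2 at 127 bp upstream, over a local background of 3.32 tags. The lowest was COX4I1, the ubiquitous form of subunit 4, with 9 tags (4.12 to 17.1) and 5.21. Its summit was the member just inside the limit, lying in an intron of COX4I1 at 656 bp downstream of a start.

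Of 9 named COX assembly factors 6 were bound (66.7%, 35.4% to 87.9%), against 25.5% of all coding genes. The interval overlapped that of the complex IV subunits (45.5%, 21.3% to 72%). The bound factors were COX10 and COX15, which together make heme A, COX17, which delivers copper, and COX14, COX18 and COX20. COX15 and COX20 had fold enrichments of 9.41 and 9.02, and COX10 had 5.48 with 7 tags. COX11, COX16 and COX19 were not bound. Besides NDUFA4 and COX4I1, the subunits COX5A, COX5B and COX8A had peaks between 5.49 and 6.63 in fold enrichment, while COX6A1, COX6B1, COX6C, COX7A2, COX7B and COX7C had none. Summits farther out lay 2183 bp from a start of COX19 and 3848 bp from COX6B1. The 7 tissue-restricted genes COX4I2, COX6A2, COX6B2, COX7A1, COX7B2, COX8C and NDUFA4L2 had no summit within 5 kb.

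Complex V is the ATP synthase. ATP5F1B, the catalytic beta subunit, had the highest fold enrichment of all members, 12.9 with 26 tags (17.0 to 38.1) at chr12:56645897-56646350, above 98.9% of bound coding genes. Its summit lay 83 bp upstream of the start, with 2 CCAAT boxes within 100 bp, the nearer at 8 bp. ATP5MC2 and ATP5MC1, which encode the same c subunit of the rotor ring, had 9.63 and 8.90 with 25 tags each, and ATP5MC3, the remaining gene for this protein, had no peak. The lowest was ATP5F1C, the central shaft subunit gamma, with 8 tags and 5.17.

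All 4 peripheral stalk genes, ATP5PB, ATP5PD, ATP5PF and ATP5PO, were bound, with fold enrichments between 6.44 and 7.30 and 10 to 12 tags each. With 4 genes the interval ran from 51% to 100%, beside 25.5% of all coding genes. The peaks of ATP5PB, ATP5PD and ATP5PF were shared with WDR77, KCTD2 and GABPA, and that of ATP5PF was nearer to GABPA. Of the 5 genes of the catalytic head and shaft, ATP5F1B, ATP5F1C and ATP5F1E were bound, and ATP5F1A (the alpha subunit) and ATP5F1D were not. Of 8 membrane subunit genes, ATP5MC1, ATP5MC2, ATP5MJ and ATP5MK were bound, the last 2 with 7 tags each, and ATP5MC3, ATP5ME, ATP5MF and ATP5MG were not. The intervals for the head and shaft (23.1% to 88.2%) and the membrane subunits (21.5% to 78.5%) include the 25.5% of all coding genes. ATP5IF1, ATP5MF-PTCD1 and ATP5MGL were also without a peak. Genes of subunits that stand in a fixed ratio in 1 enzyme thus differed from no peak to among the highest in this library.

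**Figure D2:**
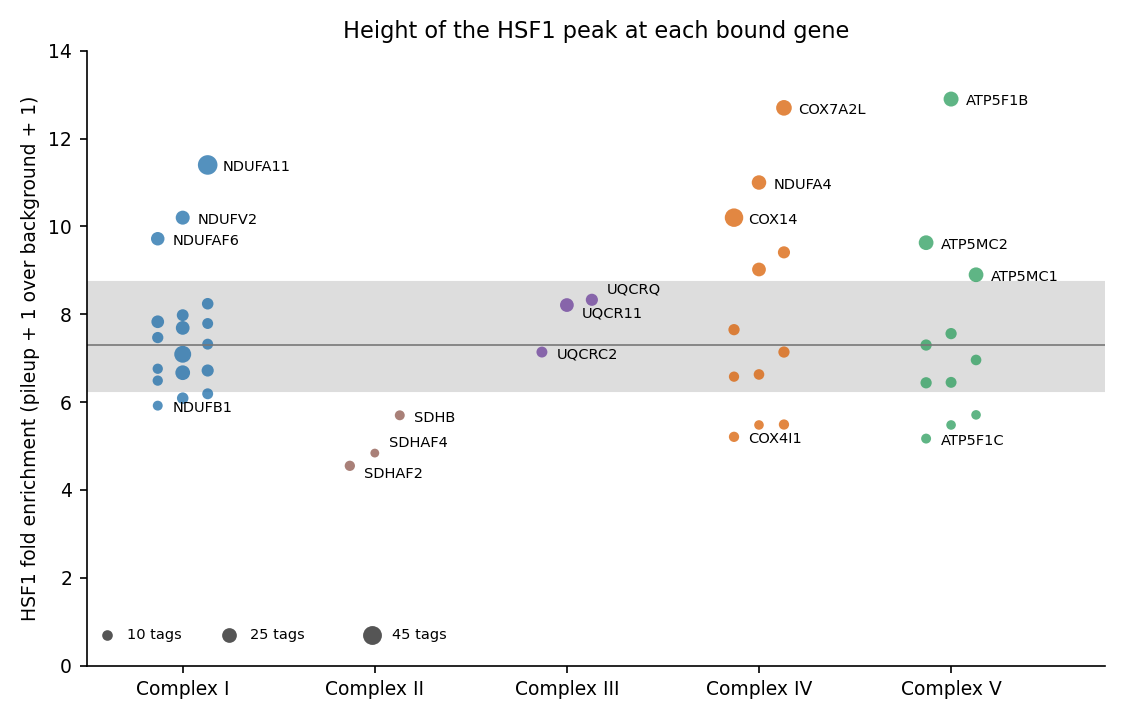
Fold enrichment (y axis) of the highest HSF1 peak at each of the 47 bound genes by complex (x axis), with point size set by the number of tags over the summit. The grey line and band are the median and quartiles of all 5095 bound coding genes (7.29, 6.25 to 8.74). ATP5F1B, COX7A2L and NDUFA11 stand above the band and all 3 complex II genes below it.

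Over all bound members the median fold enrichment was 7.14 (6.63 to 7.79) beside 7.29 for bound coding genes, and the median pileup 12 tags (11 to 15) beside 14. Median fold enrichments were 7.39 in complex I, 4.84 in complex II, 8.21 in complex III, 7.39 in complex IV (5.49 to 10.2) and 6.96 in complex V (5.48 to 9.63). The bound ribosomal protein genes had 6.82 (cytosolic) and 6.99 (mitochondrial), and the bound proteasome genes 6.78. Members were thus bound more often than coding genes at large, but the median height of their peaks was not above that of the coding genes.

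The summits lay close to the starts. Of 47 summits, 31 (66.0%) lay within 100 bp of a start against 51.9% for bound coding genes. Upstream lay 33 of the 47, beside 3811 of 5095 for bound coding genes. The share within 100 bp was 63% for bound mitochondrial ribosomal, 52.9% for cytosolic ribosomal and 40% for proteasome genes. No interval was computed for these shares, so no difference is read from them. The median distance was 57 bp against 94 bp for bound coding genes, and 51, 84.5 and 113 bp in these families. In complex I 15 of 18 lay within 100 bp, in complex V 9 of 11, in complex IV 6 of 12, in complex II 1 of 3 and in complex III 0 of 3. A gene with more annotated starts has a shorter distance by construction, and the median number of starts was 6 for bound members and 8 for bound coding genes.

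**Figure D3:**
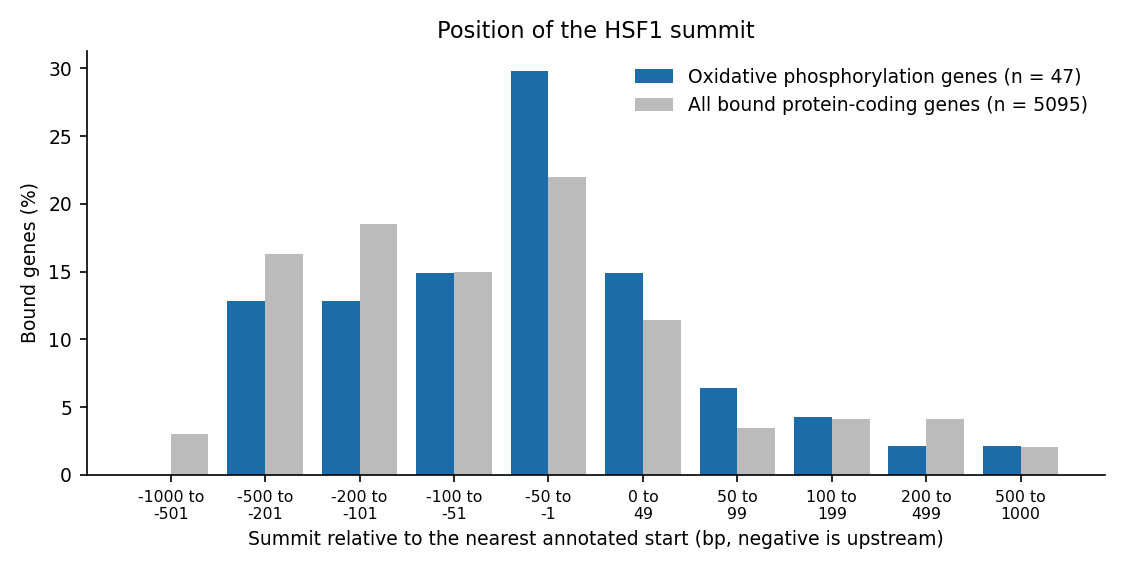
Position of the HSF1 summit relative to the nearest annotated start (x axis, bp, negative is upstream) as a share of bound genes (y axis, percent) for the 47 bound oxidative phosphorylation genes and all 5095 bound coding genes. The bin from 50 bp upstream to the start holds 29.8% of the members and 22% of the coding genes.

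Each of the 47 members had its own peak, and none was shared between members. A peak was shared with another coding gene at 19 of 47 (40.4%, 27.6% to 54.7%), against 34.2% of bound coding genes. For 7 of the 47 the summit was nearer to the other gene (14.9%, 7.41% to 27.7%), an interval that includes the 17.5% of bound coding genes. They were NDUFA7, NDUFA11, NDUFS1, SDHAF2, UQCRQ, ATP5MK and ATP5PF. Partners included RPS28 beside NDUFA7, CPSF2 beside NDUFB1, and GABPA beside ATP5PF. GABPA encodes the ETS factor also known as NRF-2, a regulator of respiratory genes, so the peak at this pair cannot be assigned to either gene from its position. At 4 of the 47 members, NDUFAF6, NDUFV3, NDUFC1 and ATP5PF, 2 peaks lay within 1 kb. More than 1 peak lay there at 281 of 5095 bound coding genes. No summit window resembled mitochondrial DNA, since at most 1.06% of its 13-base words occurred there.

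The second comparison concerned CCAAT boxes. From 150 bp upstream to 50 bp downstream of the canonical start, 28 of 111 members held CCAAT on either strand (25.2%, 18.1% to 34.0%), against 28.5% of all coding genes. Coding genes weighted to the members' GC content stood at 31.3%. By complex the shares were 10 of 46 in complex I, 0 of 8 in complex II, 2 of 9 in complex III, 9 of 28 in complex IV and 7 of 20 in complex V. With 8 genes, the 0 in complex II allows a share of up to 32.4%. The members were thus not richer in CCAAT than coding genes at large.

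Within the members, CCAAT was at the start of 15 of 47 bound genes (31.9%, 20.4% to 46.2%) and 13 of 64 unbound genes (20.3%, 12.3% to 31.7%). Over all coding genes the shares were 36.7% and 25.7%. The difference had the same direction in both sets, but the intervals of the members overlapped. Seen from the box, 15 of 28 members with CCAAT were bound (53.6%, 35.8% to 70.5%) and 32 of 83 without (38.6%, 28.8% to 49.3%).

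Around the summit itself, 15 of 47 members (31.9%) held CCAAT within 100 bp, beside 36.5% of bound coding genes. They were 8 of 18 in complex I, 0 of 3 in complex II, 1 of 3 in complex III, 2 of 12 in complex IV and 4 of 11 in complex V. In 11 of the 15 (73.3%, 48% to 89.1%) the nearest box was within 50 bp, including all 8 in complex I (67.6% to 100%). Both intervals include the 70.9% of bound coding genes with a box near the summit. The median distance was 35 bp beside 30 bp for bound coding genes. At NDUFS8 it was 4 bp and at ATP5F1B 8 bp, and NDUFS8 and ATP5F1E had 3 boxes each. The box in UQCRC2 lay 88 bp from the summit and those in COX4I1 from 17 bp, as printed above.

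Peak height with and without the box could not be told apart among the members. The median fold enrichment was 7.14 (6.49 to 8.90) with CCAAT near the summit and 7.22 (6.44 to 8.21) without. Over all bound coding genes it was 7.79 (7.73 to 7.89) with and 7.03 (6.97 to 7.14) without, a difference that the intervals of 15 and 32 members could not resolve. The 5 highest members showed both cases. CCAAT lay within 100 bp of the summit at ATP5F1B, COX7A2L and NDUFA11, and none lay there at NDUFA4 and COX14. In the window at the canonical start, however, COX14 held a box and NDUFA11 did not.

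Other words known from respiratory gene promoters were compared with coding genes and with the 3 housekeeping families. Each word was searched on both strands in the same window from 150 bp upstream to 50 bp downstream, and no word contains another. CCGGAAG, bound by ETS factors, was in 30 members (27%, 19.6% to 36.0%) against 12.1% of coding genes. GCGCATGC, the NRF1 site, was in 13 (11.7%, 6.97% to 19.0%) against 3.56%, and AAGATGGC, bound by YY1, in 16 (14.4%, 9.07% to 22.1%) against 3.59%. TCAAGGTCA, bound by estrogen-related receptors, was in SDHD and ATP5MC3 alone, against 0.110% of coding genes. GGGCGG, bound by SP1, was in 56 (50.5%, 41.3% to 59.6%) against 55.7%.

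The housekeeping families shared most of this. The ETS word was at 38.5% of mitochondrial ribosomal, 29.4% of cytosolic ribosomal and 37.5% of proteasome genes. The YY1 word was at 25.6%, 12.9% and 10.4% of them in the same order, and the NRF1 word at 7.69%, 5.88% and 2.08%. For each word the intervals of all 3 families overlapped that of the members.

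The share bound could not be told apart between members with and without these words. At least 1 of the ETS, NRF1 and YY1 words was in 48 of 111 members (43.2%, 34.4% to 52.5%), against 17.7% of coding genes. Of these 48, 21 were bound (43.8%, 30.7% to 57.7%), and of the 63 without any, 26 (41.3%, 30.0% to 53.6%). Among all coding genes, 1353 of the 3536 with such a word were bound (38.3%, 36.7% to 39.9%), against 25.5% of all coding genes. The intervals of 48 and 63 members are too wide to show whether the members share this difference. In complex IV the ETS word was in 6 of 12 bound (25.4% to 74.6%) and 2 of 16 unbound genes (3.5% to 36%). In complex I it was in 2 of 18 (3.1% to 32.8%) and 7 of 28 (12.7% to 43.4%). The intervals of bound and unbound genes overlapped in both complexes. Over all coding genes the shares were 18% of bound and 10.1% of unbound genes.

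Heat shock elements were rare. The element was searched as 3 GAA units in alternating orientation, set 2 bases apart, with 1 mismatch allowed in the 9 fixed bases. It was at the start of ATP5PD, COX20 and NDUFA10, or 2.70% of members (0.923% to 7.65%) against 2.73% of coding genes. Within 100 bp of the summit it was in 0 of 47 members, up to 7.56%, and in 2.37% of bound coding genes. A word in a window is a match of letters and does not show that a factor was there.

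**Figure D4:**
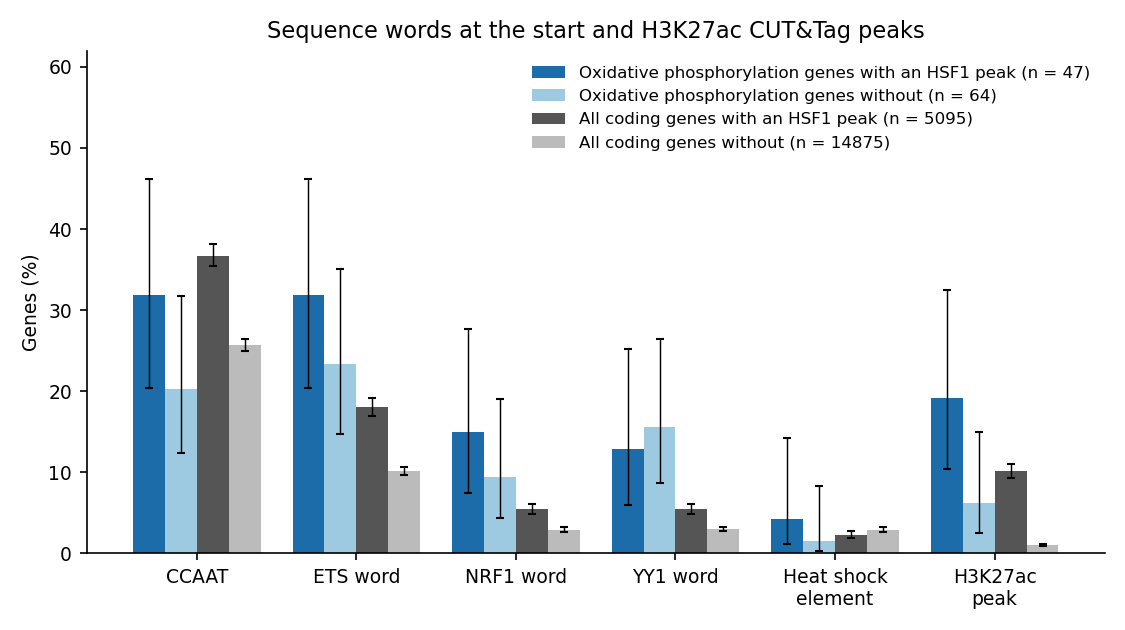
Share of genes (y axis, percent) with each sequence word from 150 bp upstream to 50 bp downstream of the canonical start, or with an H3K27ac CUT&Tag peak within 1 kb of a start (x axis). Bars are bound and unbound oxidative phosphorylation genes and bound and unbound coding genes, with 95% Wilson intervals. H3K27ac peaks are at 19.1% of bound and 6.25% of unbound members, and at 10.1% and 1.00% of coding genes.

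The third comparison concerned H3K27ac. A summit of the H3K27ac CUT&Tag list lay within 1 kb of a start at 13 of 111 members (11.7%, 6.97% to 19.0%), against 3.32% of all coding genes. Coding genes weighted jointly to GC content, starts and divergence stood at 4.90%, and the 105 members that allowed this at 10.5% (5.95% to 17.8%). The housekeeping families had H3K27ac peaks at 10.6% (cytosolic ribosomal), 8.33% (proteasome) and 7.69% (mitochondrial ribosomal) of their genes, all inside the interval of the 111 members. By complex the counts were 3 of 46 in complex I, 1 of 8 in complex II, 2 of 9 in complex III, 4 of 28 in complex IV and 3 of 20 in complex V.

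The mark was found at 9 of 47 HSF1-bound members (19.1%, 10.4% to 32.5%) and 4 of 64 others (6.25%, 2.46% to 15%). The 2 intervals overlapped, while in all coding genes the shares were 10.1% (9.31% to 11.0%) and 1.00% (0.854% to 1.17%). Bound members with the mark had a median HSF1 fold enrichment of 9.02 (6.44 to 11.0) against 7.02 (6.49 to 7.69) in the 38 without. These intervals overlapped too. In bound coding genes the medians were 8.06 and 7.21.

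The highest H3K27ac peak was at UQCRC2, with a fold enrichment of 9.74 and 14 tags (7.65 to 23.5). ATP5MC2 followed with 8.43 and 13 tags, and NDUFB1 with 7.83 and 12 tags, although its HSF1 peak was the lowest of complex I. NDUFA4 had 7.47, NDUFB4 6.82 and NDUFV2 6.32. COX7A2L, among the highest for HSF1, had 5.77 with 8 tags, ATP5PB 5.15 with 6 tags and COX20 4.84 with 11 tags.

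The 4 members with H3K27ac and no HSF1 peak were SDHC, UQCRH, ATP5F1A and COX7A2. SDHC, a membrane anchor of complex II, had a fold enrichment of 7.43 with 10 tags, and UQCRH, the hinge protein of complex III, 7.22 with 12 tags. ATP5F1A had 5.41 and COX7A2 4.17 with 5 tags. Conversely ATP5F1B, NDUFA11 and COX14 had strong HSF1 peaks and no H3K27ac peak in this list. At this depth a missing H3K27ac peak does not show that the mark was absent.

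Related genes outside the symbol rule were counted in the same way, beside the 25.5% of all coding genes. Of 36 assembly factors with other names, 20 were bound (55.6%, 39.6% to 70.5%), led by TMEM70, which helps assemble complex V, at 12 and CMC2, linked to complex IV, at 11.3. At 9 of these 20 the summit was nearer to another coding gene (45%, 25.8% to 65.8%), against 17.5% of bound coding genes. Of 14 citric acid cycle enzymes, 9 were bound (64.3%, 38.8% to 83.7%), with DLD and SUCLA2 at 10.2 each. Of 13 regulators of mitochondrial biogenesis, 6 were bound (46.2%, 23.2% to 70.9%, an interval that includes 25.5%), with TFB1M, a methyltransferase of mitochondrial ribosomal RNA, at 13.9. TFAM, ESRRA, YY1, GABPA and TFB2M were the others, and NRF1, PPARGC1A and PPARGC1B had no peak.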

How the data were processed

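Peaks were analysed in 2 CUT&Tag libraries of untreated Huh7 cells (HSF1 and H3K27ac), 1 per antibody. RNA-seq and ChIP-seq were not analysed here, the ChIP-seq lists because their headers name hg19. The study's control library without primary antibody was not analysed here.

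Per the methods and file headers, the authors aligned reads to hg38 with Bowtie2 and called peaks on each library with MACS 2.1.4, without a control, at a p-value cutoff of 1e-05, with tags extended to 200 bp. Pileup, as deposited, is a coverage signal that was not scaled for library depth. Fold enrichment, as deposited, is a ratio of this coverage to the local expectation, with 1 added to both. The −log10 p-value, as deposited by the authors, was used as a filter in an alternative only.

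Starts were those of GENCODE release 44. A gene with several peaks was given the one of highest fold enrichment. Shares have 95% Wilson intervals, pileups Poisson intervals and medians order-statistic intervals, and all cover counting error only. Weighted shares of coding genes are means over bins, of 5 percentage points for GC content, weighted by the members in each bin. In the joint weighting, bins with fewer than 50 other genes were left out. Assignment of peaks and words was tested on planted data. Members, lists and words were chosen with earlier results of these data known.

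Genes were named by rule: the 3 highest and the lowest bound member of each complex, complex I core subunits, all of complexes II and III, members with H3K27ac, and those with summits from 500 bp to 2 kb. Sequences were those of up to 2 bound members per complex with CCAAT near the summit and of 2 without, outside exons. Others were named after their values were seen. A gene that the rule names is not reported here. Python 3.11.15, pandas 2.3.3, scipy 1.17.1 and pysam 0.24.0 were used.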

Additional observations from a re-analysis of the deposited data

How the results depend on the processing

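Of 73 recomputed values for 12 results, 60 stayed within the interval of the reported value and 13 moved out of it. With peaks of fold enrichment of at least 6, the share of bound members was 33.3% and that of all coding genes 20.7%. Complex II had 0 bound genes at that limit and 0 with a −log10 p of at least 8. All coding genes stood at 24.4% with summits within 500 bp, 26.4% within 2 kb, 22.9% with canonical starts alone and 22.9% with a −log10 p of at least 8. Members stood at 41.4%, 43.2%, 41.4% and 34.2% in the same order. Members with CCAAT were 17.1% from 100 bp upstream to the start (coding genes 20.7%), 9.91% for CCAAT after 2 purines and before C or G and a purine (11.0%), and 46.8% around any start (59.5%). Bound members with CCAAT were 14.9% for the longer box (bound coding genes 16.8%) and 59.6% around any start (73.5%). The cause was not tested. No paired analysis was possible because each antibody had 1 library. The H3K27ac list rests on 896393 tags kept of 15737890. HSF1 peaks of 5 to 17 tags at the members have intervals that span more than their own value, and the median bound member had 12 tags.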
